A study of Mus musculus with 3 samples.

Results

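The Hoxd cluster is a row of 9 homeobox genes on Chromosome 2, Hoxd13, Hoxd12, Hoxd11, Hoxd10, Hoxd9, Hoxd8, Hoxd4, Hoxd3 and Hoxd1, and its occupancy by CTCF was read from a ChIP-seq peak list of LSK cells. LSK cells are adult bone marrow cells of C57BL6 mice that were sorted as negative for CD4, CD8, IL7Ra, CD11b, Ly6g, CD45R and Ter119, and positive for cKit and Sca1. They hold the hematopoietic stem cells and the multipotent progenitors. The series has 3 samples, the CTCF library of LSK cells, an input of LSK cells and an input of megakaryocyte erythroid progenitors, and the peak list belongs to the CTCF library. The inputs were not analyzed here. A peak list holds no expression values, so the label LSK was not checked against marker genes. Members were the peaks with their midpoint from 500 kb before to 500 kb after the span of the 9 gene records of GENCODE M21 (mm10, chr2:74668310-74765142), and 11 of the 18945 peaks of the list qualified. Of these, 3 lay in the centromeric flank before Hoxd13, 4 in the span and 4 in the telomeric flank after Hoxd1. There is 1 library and no replicate, so no p-value was computed, and differences between places or clusters below were not tested.

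Hox genes encode transcription factors that give cells their position along the body axis, and their order on the chromosome follows the order of their domains in the embryo. The Hoxd genes with high numbers shape digits, external genitalia and the distal limb, and those with low numbers act in the hindbrain and the neck. In limbs the cluster is served by enhancers in gene deserts on either side, each of which forms a chromatin domain of its own, with the border between them inside the cluster. CTCF is a zinc finger protein that halts loop extrusion by cohesin. Its motif is not symmetric, and loops tend to form between sites whose motifs face each other. In blood stem and progenitor cells, Hoxa and Hoxb genes such as Hoxa9 and Hoxb4 are the better known members of the family.

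The CTCF core motif of 12 letters was searched in every peak on both strands, and the match with the fewest mismatches was kept, with the nearest to the midpoint taken among equals. The matches are shown so that their strand and quality can be read along the locus. Each line runs 5′ to 3′ along the motif, with the 12 letters of the match in capitals, and the sequence is that of GRCm38.p6, which shares its coordinates with mm10. The peaks stand in order from the centromeric to the telomeric side.

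In 4930441J16Rik, chr2:74300439-74300468, plus strand, no mismatch: taacaatgaCCAGTAGGTGGCggtccagcc

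In Evx2, chr2:74655518-74655547, minus strand, no mismatch: ctcctgctgCCGCTAGGGGGCgccccgggg

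Between Evx2 and Hoxd13, chr2:74663738-74663767, minus strand, 2 mismatches: ccgcgcttgGCGCTAGATGTCcctgcaagt

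Between Hoxd13 and Hoxd12, chr2:74673169-74673198, minus strand, 1 mismatch: gccaaacgcCCAGGAGATGGCgagcgtgct

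In Hoxd11, chr2:74686471-74686500, plus strand, 2 mismatches: cttctacagCCACACGAGGGCgcgctcatg

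Between Hoxd9 and Hoxd8, chr2:74702386-74702415, plus strand, 1 mismatch: cgcatttggCCACTAGAGAGCgctgttgct

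In Hoxd3 and Hoxd4, chr2:74715912-74715941, plus strand, 2 mismatches: gagctttgtCCAGGAGGAGGCgctgtagga

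Beyond Mtx2, chr2:74964530-74964559, minus strand, no mismatch: aaggagcctCCAGCAGGGGGCacccttttg

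In the telomeric desert, chr2:75055356-75055385, minus strand, no mismatch: tgtatttggCCACTAGGTGGCactgttggt

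At the start of Gm13652, chr2:75138082-75138111, minus strand, 1 mismatch: ccagggtgtCCACTAGGGCGCgctgtgaga

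In 2600014E21Rik, chr2:75152683-75152712, minus strand, no mismatch: tgcctcagtCCACTAGAGGGCgctttccca

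Within the cluster, CTCF occupied the interval between Hoxd9 and Hoxd8 most strongly. The peak from 74701969 to 74702775 lay in intergenic sequence 1840 bp upstream of Hoxd8, which acts in trunk and limb patterning, and was enriched 14.03-fold (the fold enrichment that the authors' peak caller gave, on a linear scale), with 19.844 as the −log10 of its p-value. Of all peaks in the list, 77.7% had a lower fold enrichment. Next came the peak from 74715589 to 74716319, enriched 9.46-fold with a −log10 p of 15.199, where 41.7% of all peaks were lower. Its midpoint lay in an intron of both Hoxd3 and Hoxd4, whose gene records overlap in GENCODE, and in an exon of Hoxd3os1, a noncoding RNA transcribed from the opposite strand. This peak covered 2 annotated transcript starts of Hoxd3os1, at 74715996 and 74716130, and was the only peak of the 11 over any transcript start.

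The remaining peaks of the span were weak. The peak between Hoxd13 and Hoxd12, from 74672776 to 74673408, was enriched 6.85-fold (−log10 p 5.83). The peak from 74686299 to 74686836 lay in an exon at the 3′ side of Hoxd11, and was enriched 5.55-fold. Its −log10 p was 5.043, where the lowest of the whole list was 5.001. The intervals Hoxd12 to Hoxd11, Hoxd11 to Hoxd10, Hoxd10 to Hoxd9, Hoxd8 to Hoxd3 and Hoxd3 to Hoxd1 held no peak between the gene records. The last 48823 bp of the span, or 50.4% of it, held none, and this stretch takes in most of Hoxd3, the noncoding RNA gene Haglr and Hoxd1. The median gap between neighboring peaks of the list was 43238 bp, so that stretches of these lengths without a peak are common. The number of reads behind each peak is not in the list, so that an interval without a listed peak may hold CTCF at a level below the authors' threshold.

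**Figure D1:**
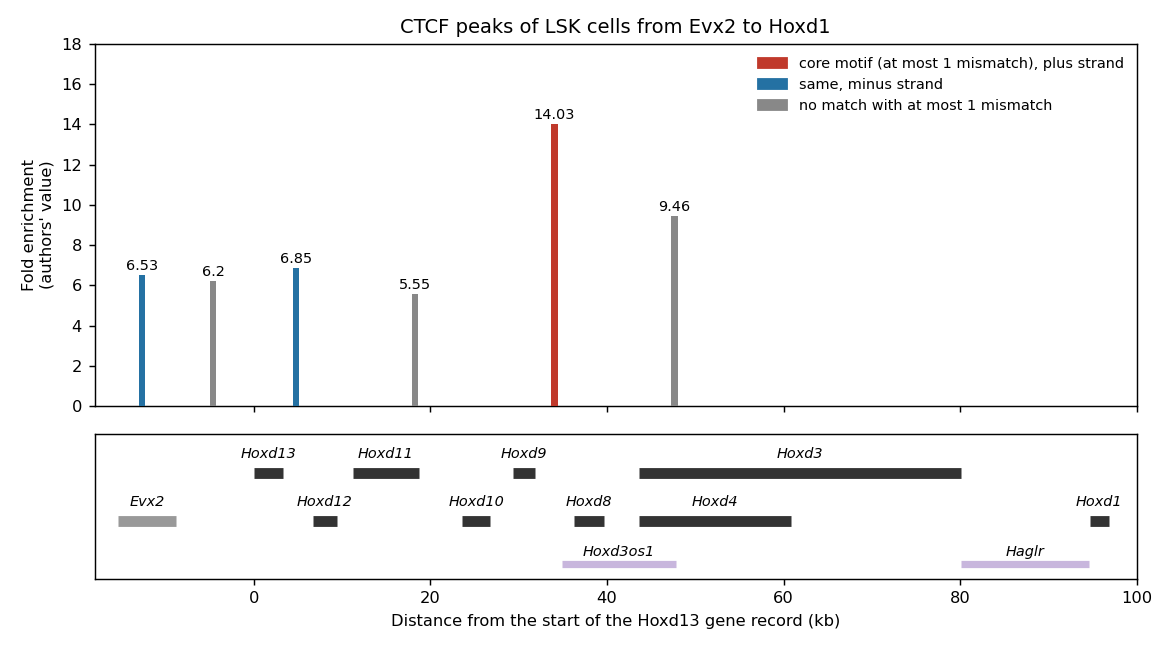
CTCF peaks of LSK cells from Evx2 to Hoxd1, plotted as fold enrichment from the deposited list (y axis) against distance from the start of Hoxd13 in kb (x axis). A bar is 1 peak at its midpoint, widened for visibility and colored by the strand of the core motif with at most 1 mismatch, and the lower panel shows gene records (Hoxd in black, noncoding RNA genes in lilac). The tallest bar is 14.03 between Hoxd9 and Hoxd8, and no bar stands to the right of 9.46 in Hoxd3 and Hoxd4.

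The centers of the 2 strongest peaks of the span are shown at greater length, since they are the peaks that stay in the span when a −log10 p-value of at least 10 is asked. Each line gives the plus strand over 200 bases around the midpoint, with the best match to the core motif in capitals.

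Between Hoxd9 and Hoxd8, chr2:74702273-74702472: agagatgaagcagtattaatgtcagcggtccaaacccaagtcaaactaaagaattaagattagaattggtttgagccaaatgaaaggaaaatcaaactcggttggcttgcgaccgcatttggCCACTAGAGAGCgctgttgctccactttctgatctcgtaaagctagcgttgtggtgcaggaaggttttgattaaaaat

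In Hoxd3 and Hoxd4, chr2:74715855-74716054: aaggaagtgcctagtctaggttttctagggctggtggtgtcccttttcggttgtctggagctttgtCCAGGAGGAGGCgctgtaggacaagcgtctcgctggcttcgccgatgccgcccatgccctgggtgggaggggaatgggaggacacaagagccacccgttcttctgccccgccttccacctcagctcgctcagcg

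In both peaks the match lay 28 bp from the midpoint. Among the 8 peaks of the region with a match of at most 1 mismatch, the median distance from match to midpoint was 90.5 bp, where it was 29 bp over all such peaks of the list. The Hoxd9 to Hoxd8 peak had 36.2% G and C bases, the lowest value of the 11 peaks, and the Hoxd3 and Hoxd4 peak had 53.5%.

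Beside the centromeric end of the cluster, 2 weak peaks lay at Evx2, a homeobox gene next to Hoxd13 that shares its limb enhancers. The peak from 74655383 to 74655937, in a coding exon of Evx2, was enriched 6.53-fold (−log10 p 5.23). The peak from 74663391 to 74664083, between Evx2 and Hoxd13, was enriched 6.2-fold (−log10 p 6.689). It was 3834 bp from the start of Evx2 and 4227 bp from that of Hoxd13, which lie head to head on opposite strands. Together with the 4 peaks of the span these made a run of 6 peaks over 60937 bp, in which neighboring peaks were 7453 to 15132 bp apart. Over the whole list the median gap between neighboring peaks was 43238 bp, and no share of gaps as short as these is given here. Of the run, only the Hoxd9 to Hoxd8 peak and the Hoxd3 and Hoxd4 peak had a −log10 p of at least 10.

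In the centromeric flank, the remaining peak lay from 74300070 to 74301200 in an intron of the noncoding RNA gene 4930441J16Rik, 367110 bp from Hoxd13, and was enriched 12.4-fold (−log10 p 19.567). The stretch of 354182 bp from there to the peak in Evx2 held none, and it takes in the whole of Lnpk, which encodes a protein of the endoplasmic reticulum. Of the gaps between neighboring peaks in the list, 7.51% were at least as long. The flank as a whole had 3 peaks in 500 kb, and 60.3% of windows of 500 kb across Chromosomes 1 to 19 and X had 3 or fewer, with a median of 2.

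On the telomeric side, a stretch of 248017 bp without a peak began in Hoxd3, within the span, and ran over Haglr, Hoxd1 and Mtx2, which encodes a protein of mitochondrial import. Of the gaps in the list, 11.4% were at least as long. The peak that ended it, from 74964337 to 74964956, was enriched 8.81-fold (−log10 p 7.864). The peak from 75055114 to 75055732 was enriched 12.4-fold (−log10 p 16.925) in intergenic sequence, of which 57.2% was soft-masked as repeat. A pair of peaks followed at the far end, 13894 bp apart. The former, from 75137913 to 75138460, was enriched 9.79-fold (−log10 p 12.063) and lay between the divergent starts of the noncoding RNA genes Gm13652 and 2600014E21Rik, 115 bp from the start of Gm13652 and 383 bp from that of 2600014E21Rik. The latter, from 75152355 to 75153119, was enriched 11.75-fold (−log10 p 14.968) and lay in introns of 2600014E21Rik and A330043C09Rik. These noncoding RNA genes and 4930441J16Rik were named after their values were seen. Of windows of 500 kb, 68.3% had 4 or fewer peaks, as this flank did.

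**Figure D2:**
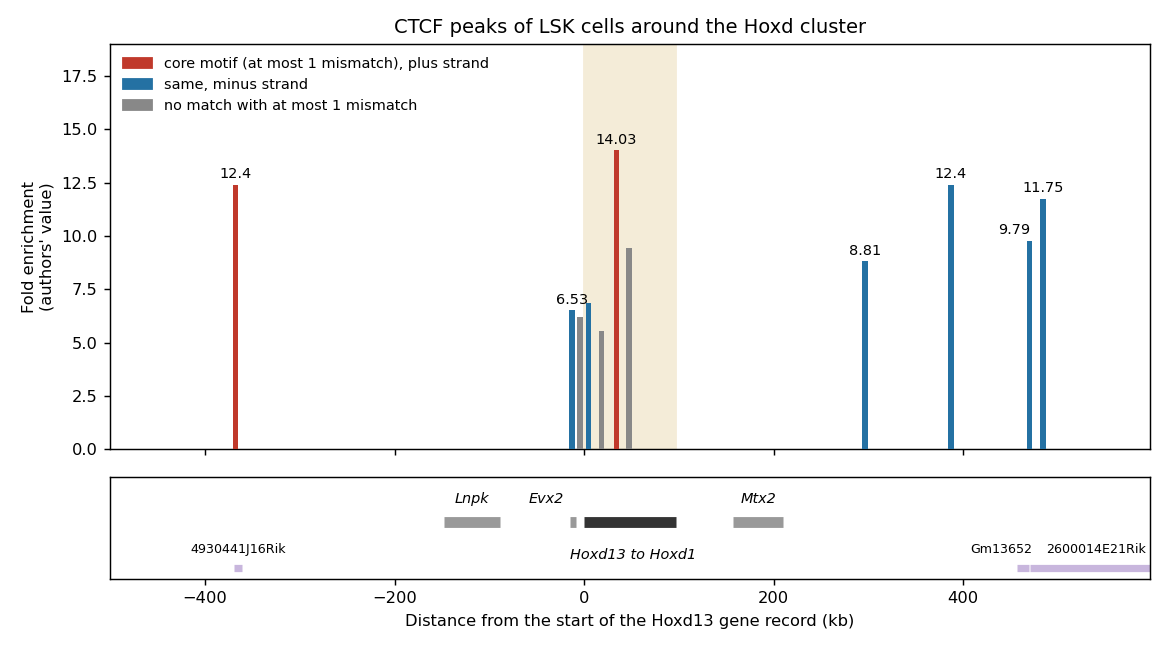
The 11 CTCF peaks of LSK cells from 500 kb before to 500 kb after the Hoxd span (shaded), plotted as fold enrichment from the deposited list (y axis) against distance from the start of Hoxd13 in kb (x axis). A bar is 1 peak at its midpoint, widened for visibility and colored by the strand of the core motif, and the lower panel shows protein-coding genes and 3 noncoding RNA genes. In the telomeric flank all 4 bars are blue, for the minus strand, with fold enrichments of 8.81 to 12.4.

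The span had 4 peaks in 96833 bp, or 4.13 per 100 kb, against 0.60 in the centromeric flank, 0.80 in the telomeric flank and 0.719 over Chromosomes 1 to 19 and X. Of windows as long as the span, laid end to end without unknown bases, 3.98% held 4 or more peaks. The place of the span among windows depended on its weak peaks. With a −log10 p of at least 10 it kept 2 peaks, and 10.9% of windows held as many or more. Among the peaks with the smallest false discovery rates, 9472 in number, it kept 1, and 23.7% of windows held at least that. The whole region held 11 peaks in 1096833 bp, and 29.5% of windows of that length held as many or more. The span also differed in sequence, with 49.4% G and C bases and 14.4% soft-masked bases, where the centromeric flank had 41.0% and 28.6% and the telomeric flank 41.8% and 23.2%. Whether base composition or repeats have a part in the number of peaks was not tested.

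By gene, 8 of the 9 Hoxd genes had a peak within 10 kb of the 5′ end of the gene record, where 29.3% of all 21755 protein-coding genes did. None of the 9 had a peak within 1 kb (8.59% of all protein-coding genes) and all 9 had a peak within 50 kb (67.7%). Neighboring genes share peaks, so the 9 genes are not separate observations. Hoxd12, a gene of the distal limb, was the closest, 1605 bp from the weak peak upstream of it. Hoxd8 followed at 1840 bp from its peak of 14.03, and Hoxd9, which patterns limb and lumbar spinal cord, lay on the other side of that peak at 4242 bp. Hoxd13, the gene of digits whose mutation fuses them, was 4227 bp from the peak on the Evx2 side.

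Hoxd10, a gene of hindlimb motor neurons, was 5088 bp from the weak peak in Hoxd11, and Hoxd11, a gene of the forearm and the kidney, was 6149 bp from the weak peak between Hoxd13 and Hoxd12. Hoxd3 and Hoxd4, genes of the hindbrain and the neck, were 3662 and 3660 bp from the peak of 9.46 downstream of their starts. The start of Hoxd4 depends on the annotation. With the RefSeq record, Hoxd4 starts at 74721978 in place of 74711929, the same peak lies upstream of it, and its distance is 5659 bp. The RefSeq record of Hoxd10 starts at 74684273, on the other side of the weak peak in Hoxd11 and 2026 bp from it. With RefSeq starts 8 of the 9 genes again had a peak within 10 kb. Mir10b, a microRNA gene beside Hoxd4, was 9751 bp from the peak in Hoxd3 and Hoxd4. Hoxd1 stood apart from the other members with its nearest peak 46661 bp away. When a −log10 p-value of at least 10 was asked of the peaks, 4 Hoxd genes had a peak within 10 kb, namely Hoxd9, Hoxd8, Hoxd4 and Hoxd3, and 20.8% of all protein-coding genes did.

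The strands of the motifs were read in order along the chromosome, and whether that order differs from a random one was not tested. Of the 11 peaks, 8 had a match to the core motif with at most 1 mismatch, or 72.7% (95% Wilson interval 43.4% to 90.3%, which covers counting error only), where 83.6% of all peaks had one. In the centromeric flank the peak in 4930441J16Rik had its match on the plus strand, which points to the cluster. The peak in Evx2 and the peak between Hoxd13 and Hoxd12 had theirs on the minus strand, pointing away from the rest of the cluster and to the centromeric desert. Both were weak (−log10 p 5.23 and 5.83) and were lost with a −log10 p of at least 10. The minus strand at this end thus rests on weak peaks. The peak between Hoxd9 and Hoxd8 had its match on the plus strand, pointing to the telomeric desert, and all 4 peaks in that desert had theirs on the minus strand, pointing back to the cluster. In Evx2 the strand is less certain than elsewhere, since that peak held 2 matches on the minus and 1 on the plus strand.

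The peaks between Evx2 and Hoxd13, in Hoxd11 and in Hoxd3 and Hoxd4 held no match with fewer than 2 mismatches. Their best matches were on the minus, plus and plus strand. A match with at most 2 mismatches was found in 75.1% of 37851 windows taken 10 kb away from the peaks of the list and as wide as them, whereas at most 1 mismatch was found in 17.4% and a perfect match in 1.32%. No contact between these sites was measured.

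The core motif without a mismatch was present in 5 of the 11 peaks, or 45.5% (21.3% to 72.0% by the same interval), where 35.6% of all peaks had it (34.9% to 36.3%). The region thus stood above the list for perfect matches and below it with 1 mismatch allowed, and in both cases the share over the list lay within the interval of the region. None of these 5 lay in the span. There, 0 of 4 peaks had a perfect match, which leaves a share of up to 49.0% by the same interval, and 2 of 4 had a match with at most 1 mismatch (15.0% to 85.0%), against 83.6% of all peaks. In the central 200 bp of the peak, 2 of the 11 had a perfect match, or 18.2% (5.14% to 47.7%), and 32.6% of all peaks did. The perfect matches in 4930441J16Rik, in Evx2 and beyond Mtx2 lay 182, 128 and 102 bp from the midpoint. The 2 central ones were those of the telomeric desert, at 53 bp in the peak of 12.4 and at 40 bp in 2600014E21Rik.

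Read from the sequence, the region held 11 perfect sites of the core motif, or 1.003 per 100 kb. None of them lay in the Hoxd span of 96833 bp, where few would be expected at that rate. Whether their absence is unusual was not tested. Of the 11 sites, 5 were in a peak and 6 were not. Of the 22944 sites on Chromosomes 1 to 19 and X, 30.3% were in a peak. All 7 sites of the telomeric flank, 3 in a peak and 4 outside, were on the minus strand. The 6 sites outside a peak are shown for comparison with the occupied ones, again along the motif with the match in capitals.

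In a coding exon of Lnpk, chr2:74547858-74547887, plus strand: acagctgctCCAGCAGATGGCggctcaaac

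Between Lnpk and Evx2, chr2:74608476-74608505, minus strand: atcttaaatCCGGTAGAGGGCtaatatcca

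Between Hoxd1 and Mtx2, chr2:74814473-74814502, minus strand: agctaacatCCAGTAGAGGGCtaatatcca

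In the telomeric desert, chr2:75038723-75038752, minus strand: acaaaaggtCCTGTAGGTGGCttttagtgg

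Beside the peak of 12.4 in the telomeric desert, chr2:75058566-75058595, minus strand: atatccactCCTCTAGATGGCtgtaaaaag

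Beside the peak in 2600014E21Rik, chr2:75151164-75151193, minus strand: gcttcttcaCCACCAGGTGGCgccctttgt

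The sites between Lnpk and Evx2 and between Hoxd1 and Mtx2 lay in soft-masked repeat with all 12 letters and had 26 of the 30 printed bases in common. The remaining sites outside a peak were not masked. The last one, 1182 bp from the peak in 2600014E21Rik, was the nearest to a peak, and the site in Lnpk, 107516 bp from one, was the farthest. The occupied site of the telomeric desert and its unoccupied neighbor, 2843 bp from that peak, both match the core motif without a mismatch.

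In strength the 11 peaks had a median near that of the list, with a weak group among them. For both peaks at Evx2 and the peaks at Hoxd12 and Hoxd11, 2.22% to 11.6% of all peaks were lower in fold enrichment. The fold enrichments of all 11 ran from 5.55 to 14.03 with a median of 9.46. The list had a median of 10.12 and a highest value of 42.42, and 4 of the 11 were above its median. A −log10 p-value below 10 was given to 5 of the 11, against 37.0% of all peaks, and these were both peaks at Evx2, the peaks at Hoxd12 and Hoxd11 and the peak beyond Mtx2. Widths ran from 538 to 1131 bp with a median of 633 bp, against 715 bp over the list. The ratio of observed to expected CpG was above the median of all peaks, 0.25, in all 11 peaks, from 0.291 in 2600014E21Rik to 0.887 in Evx2. The content of G and C bases was above the median of all peaks, 47.0%, in 4 of the 11, with 75.0% in Evx2 as the highest. By their midpoints 6 of the 11 were intergenic, or 54.5%, against 45.8% of all peaks.

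The Hoxd span was set beside the spans of the other Hox clusters, which arose with it by duplication. Hoxb had 8 peaks in 173941 bp (4.60 per 100 kb), Hoxa had 3 in 105291 bp (2.85) and Hoxc had 3 in 115750 bp (2.59), against 4.13 per 100 kb in Hoxd. Fold enrichments in the Hoxd span ran from 5.55 to 14.03. In Hoxa they ran from 14.03 to 17.29, so that its weakest peak had the value of the strongest in Hoxd, and in Hoxb they ran from 6.53 to 15.34 and in Hoxc from 5.87 to 10.77. With a −log10 p-value of at least 10, the spans kept 3 peaks in Hoxa, 4 in Hoxb, 1 in Hoxc and 2 in Hoxd. No perfect core motif was found in the spans of Hoxa, Hoxc and Hoxd, and 3 in that of Hoxb, of which 1 was in a peak. Such sites are sparse, with 1.003 per 100 kb over the whole Hoxd region. The flanks of 500 kb on either side held 10 peaks around Hoxa, 22 around Hoxb and 36 around Hoxc, against 7 around Hoxd.

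**Figure D3:**
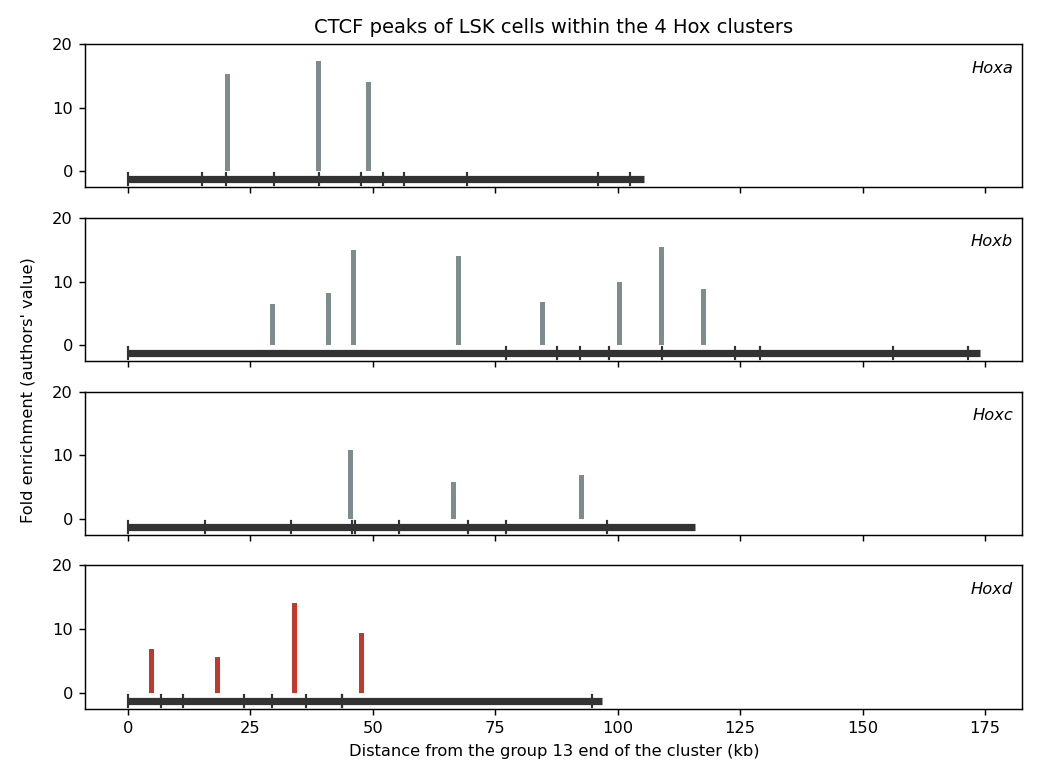
CTCF peaks of LSK cells within the spans of the 4 Hox clusters, plotted as fold enrichment from the deposited list (y axis) against distance from the group 13 end in kb (x axis). A bar is 1 peak widened for visibility, black lines are the cluster spans and ticks are gene starts. In Hoxd (red) the edge of the outermost peak lies 4466 bp from the group 13 end, against 19895 bp or more in the other clusters. That Hoxd peak is weak (−log10 p 5.83).

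At the end with high numbers, the peaks of the Hoxd span began 4466 bp from the end at Hoxd13. The peak there, between Hoxd13 and Hoxd12, was weak (−log10 p 5.83). With a −log10 p of at least 10, the first peak of the Hoxd span was that between Hoxd9 and Hoxd8, farther in. In Hoxa the stretch before the outermost span peak was 19895 bp (−log10 p of that peak 24.283), in Hoxb 29247 bp (8.082) and in Hoxc 45074 bp (10.745). At the end with low numbers each span ended in a stretch without a peak, of 48823 bp in Hoxd (50.4% of the span), 55755 bp in Hoxa (53.0%), 56116 bp in Hoxb (32.3%) and 22864 bp in Hoxc (19.8%). Over the list the median gap between neighboring peaks was 43238 bp. Evx2, beside Hoxd13, had 2 peaks within 10 kb, and Evx1, its counterpart beside Hoxa13, had its nearest peak 42397 bp away. The 2 genes are not placed alike. Evx2 starts at 74659557 and Hoxd13 at 74668310, while Evx1 starts at 52313498, farther from Hoxa13 at 52260880. No share of genes with 2 peaks within 10 kb is given. Both peaks at Evx2 were weak, with a −log10 p of 5.23 and 6.689, where the peak nearest to Evx1 had 15.323. With a −log10 p of at least 10, neither peak at Evx2 was kept.

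Hox genes with the same number form a paralogue group. The genes of group 13 in the other clusters, and Evx1, were named after their values were seen. Hoxd9 was 4242 bp from a peak, and all 4 genes of group 9 had one within 10 kb, as did the 3 genes of group 8 and the 3 of group 10. All genes of groups 5 and 7, which have no member in Hoxd, had one as well. Groups 3, 6 and 11 had 2 of 3 genes each within 10 kb of a peak. Group 4 had 3 of 4 and group 12 had 1 of 2. Neighboring genes of a cluster share peaks. Of the 4 genes of group 13, Hoxd13 at 4227 bp and Hoxa13 at 9439 bp had a peak within 10 kb, while Hoxb13 was 29247 bp and Hoxc13 45074 bp from one. By cluster, 8 of 9 genes in Hoxd, 8 of 11 in Hoxa, 6 of 10 in Hoxb and 5 of 9 in Hoxc had a peak within 10 kb, where 29.3% of all protein-coding genes did. The order depended on weak peaks. With a −log10 p of at least 10, 4 Hoxd genes had one (20.8% of all protein-coding genes), while the nearest peaks of the 8 Hoxa genes all had 15.323 or more. Hoxb and Hoxc were not counted in this way. The strongest peak of each other span overlapped a gene start, with 17.29 at Hoxa7, 15.34 at Hoxb5 and 10.77 at Hoxc10, and no Hoxd gene had a peak over its start.

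**Figure D4:**
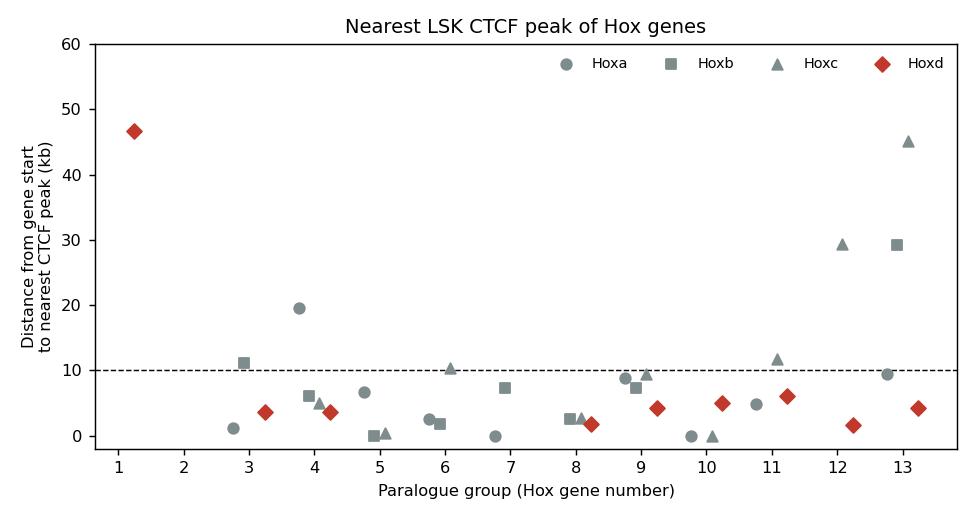
Distance from the gene start to the nearest CTCF peak of LSK cells in kb (y axis) by paralogue group (x axis), for the 9 Hoxd genes in red and the genes of groups 3 to 13 of the other clusters in gray. Each point is 1 gene, and the dashed line marks 10 kb. Hoxd1 is 46661 bp from a peak and the other 8 Hoxd genes lie below the line, between 1605 and 6149 bp.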

How the data were processed

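Of the 3 samples, the CTCF ChIP-seq library of LSK cells was used. The authors mapped reads to mm10 with Bowtie, kept reads that map to several places, which can add signal in repeats, and called peaks with MACS. Bowtie 1.0.0 and bcl2fastq appear in the processing notes by the submitters. The settings of MACS and any use of the input were not given in the sources used here. No header comes with the deposited list. It gives the authors' fold enrichment (a linear ratio), the authors' −log10 p-value, and their q-value or false discovery rate, whose scale is not stated and whose values are not printed. It holds no read totals, so the depth behind each peak is unknown.

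Everything else was computed with pandas 2.3.3, numpy 2.4.6 and scipy 1.17.1 under Python 3.11.15 (plots in matplotlib 3.10.9), on GRCm38.p6 and GENCODE M21. A peak was placed by its midpoint. A gene start was the 5′ end of its record. Windows for comparison were laid end to end. Groups 1 and 2 of the other clusters are not reported gene by gene here. The motif search was tested on simulated data. Named genes were the 9 Hoxd genes, coding genes, microRNA genes and named noncoding RNA genes (not Gm or Rik names) within 500 kb, the nearest coding gene of each peak, and up to 2 genes in each of the other clusters, those with the strongest peak within 10 kb. The members and lists were chosen with earlier results of these data known. Alternatives were other thresholds, distances, mismatches and gene starts.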

Additional observations from a re-analysis of the deposited data

How the results depend on the processing

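Weak peaks and chosen distances set the counts. With a −log10 p-value of at least 10, the region had 6 peaks in place of 11, the span 2 in place of 4, and 4 Hoxd genes in place of 8 had a peak within 10 kb. Among the 9472 peaks with the smallest false discovery rates these numbers were 5, 1 and 4. The peak in Hoxd3 and Hoxd4 was then lost from the span, while Hoxd3 and Hoxd4 still lay within 10 kb of the Hoxd9 to Hoxd8 peak. With the limit on −log10 p, 20.8% of all protein-coding genes had a peak within 10 kb, in place of 29.3%. No share over all windows is given for the region counts of 6 and 5. None over all genes is given for the 4 Hoxd genes under the limit on the false discovery rate. Within 250000 bp on either side 7 peaks remained, and no Hoxd gene (0) had a peak within 1 kb of its start. The core motif was found in 72.7% of peaks with 1 mismatch, 100% with 2 mismatches and 18.2% in the central 200 bp, in place of 45.5%, and the same shares over all peaks were 83.6%, 98.98% and 32.6%, in place of 35.6%. Windows with as many peaks as the span made up 10.9% under the limit on −log10 p and 23.7% under that on the false discovery rate, in place of 3.98%, and these settings were added after the data were seen. These shifts follow from fewer peaks, shorter distances or looser matches. In all, 13 of the 26 alternatives moved a count, median or window share by more than 1.5 times or a share beyond its interval, and 13 did not, among them merged peaks, placement by any overlap, every transcript start and the RefSeq starts, which were added after the data were seen. No paired analysis was possible because a single library was analyzed and nothing was compared between samples.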

Other observations

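Beyond the limit of 500 kb, the nearest peaks were 601172 bp before the span (fold enrichment 12.73) and 546995 bp after it (8.16). The telomeric side of the Hoxd cluster then led to a group of 4 peaks between 823277 and 840340 bp from the span, with fold enrichments of 4.89, 14.68, 5.87 and 42.42. The last of these, from 75605482 to 75606362, ranks 1 in fold enrichment among all 18945 peaks. It held a match to the core motif with 1 mismatch on the plus strand, whereas the peaks of 4.89 and 14.68 before it had theirs on the minus strand with 1 and 0 mismatches, as did the 4 peaks of the telomeric flank with at most 1. These peaks lie outside the region described above and were chosen after their values were seen.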
